A study of Mus musculus with 35 samples.

Results

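The RNA levels of 8 genes of the endoderm program, Gata4, Gata6, Sox7, Sox17, Foxa1, Foxa2, Hnf4a and Pdgfra, were described across 26 RNA-seq samples of mouse embryonic stem cells (ESCs) that were differentiated towards neuroectoderm (NE). The genes were taken by name from the endoderm program, and all 8 were found among the 17948 genes of the day 3 table, the 18091 of the Dnmt1 table and the 17705 of the Tet3-CD table. Of the 8, 7 encode transcription factors, whereas Pdgfra encodes a receptor that endoderm cells carry on their surface. All samples derive from V6.5 male ESCs of a mixed 129/C57BL/6 background that were deprived of LIF and given 1 µM retinoic acid (RA), for 72 h by the labels. The genotypes were Tet3+/+, Tet3 m/m, which carries point mutations in the catalytic site of TET3, and Tet3-/-, which lacks exon 4. The day 3 experiment holds untransfected cells, with 3 Tet3+/+, 3 Tet3 m/m and 2 Tet3-/- samples that the study describes as independent clones. In the Dnmt1 experiment, ESCs of each genotype received the empty vector (EV) or myc-Dnmt1 at day 0 and blasticidin for the last 24 h, with 2 samples per genotype and vector. In the Tet3-CD experiment, cells of each genotype received EV or the HA-tagged TET3 catalytic domain (Tet3-CD) on day 2 and were collected 48 h later according to the methods, with 1 sample per genotype and vector. Each vector was compared with the EV of its own experiment, and the share of cells that expressed a vector is not given. The labels do not say whether the transfected samples are separate clones or cultures, and p-values there measure the spread between these samples.

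Primitive endoderm arises beside the pluripotent epiblast in the blastocyst and gives rise to visceral and parietal endoderm, which feed the embryo and lay down its basement membrane. Gata6 starts this lineage, Gata4, Sox17 and Sox7 act after it, and Hnf4a and the FOXA factors direct the visceral endoderm genes for nutrient uptake and secreted proteins. Foxa2 and Foxa1 also serve definitive endoderm and the ventral midline of the neural tube, Gata4 and Gata6 the heart, and Sox7, Sox17 and Pdgfra cells of vessels or mesoderm. RA is used to direct ESCs to neural fates, and it is also known to drive embryonal carcinoma cells to endoderm.

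The values are counts that the authors normalized to the size of each library, and the whole reads behind them, 31155842 to 50845950 per sample, could be recovered. As a check of the labels, the count of the whole Tet3 gene on day 3 was 4613, 4576 and 5020.0 for Tet3+/+, 2666, 2277 and 1945 for Tet3 m/m and 1796 and 2329 for Tet3-/- samples. In the EV samples of the Dnmt1 experiment it was 2957 and 3075 for Tet3+/+, 1125 and 964 for Tet3 m/m and 2520.3 and 2571 for Tet3-/-. It was thus below Tet3+/+ in every mutant sample of both experiments. A count over the whole gene also takes reads outside the deleted exon, so it does not check the deletion. The count of Dnmt1 was 11285 to 17554 over the 6 EV samples and 20244 to 39854 over the 6 samples that received Dnmt1, higher with the vector in every genotype. In the Tet3-CD experiment the Tet3 count went from 4755 with EV to 5441 with Tet3-CD in Tet3+/+, from 1849.9 to 5232 in Tet3 m/m and from 2069.8 to 2759 in Tet3-/- cells. Neural progenitor genes were present in all groups, at a summed 554 to 780.3 RPM (reads scaled to library size) in the day 3 Tet3+/+ samples and 179 to 184 in the EV Tet3 m/m samples, the lowest group.

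Levels were compared between genes as RPKM, reads scaled to depth and to the exon length of each gene in GENCODE. In day 3 Tet3+/+ NE cells, Foxa2 was the most abundant of the 8 genes, at an RPKM of 16.5 (range of 3 samples, 15.1 to 17.7), and Hnf4a the least, at 0.0946 (0.0689 to 0.128). Between them came Foxa1 at 9.29 (8.71 to 10.4), Sox17 at 7.30 (6.51 to 8.76), Gata6 at 7.14 (5.80 to 8.76), Gata4 at 6.48 (5.47 to 7.13), Pdgfra at 2.91 (2.11 to 3.42) and Sox7 at 1.42 (0.698 to 2.12). The ranges of Foxa1 and Sox17 overlapped, as did those of Sox17, Gata6 and Gata4 and those of Pdgfra and Sox7, so in this order Foxa2 stood clear above, Hnf4a stood clear below, and a gap lay between Gata4 and Pdgfra. The order was not fixed: Gata6 ranked highest in day 3 Tet3-/- cells at 11.4 (8.63 to 14.3), and Gata4 in the EV samples of the Dnmt1 experiment, at 23.0 in Tet3+/+ (22.0 to 24.0) and 64.2 in Tet3 m/m (62.8 to 65.7). Over all 26 samples, Hnf4a had the widest range, from 6 to 931 reads and 190-fold in RPKM, followed by Sox7 at 42.7-fold and Gata4 at 38.7-fold. Foxa2 (3.81-fold) and Gata6 (5.26-fold) varied least.

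**Figure D1:**
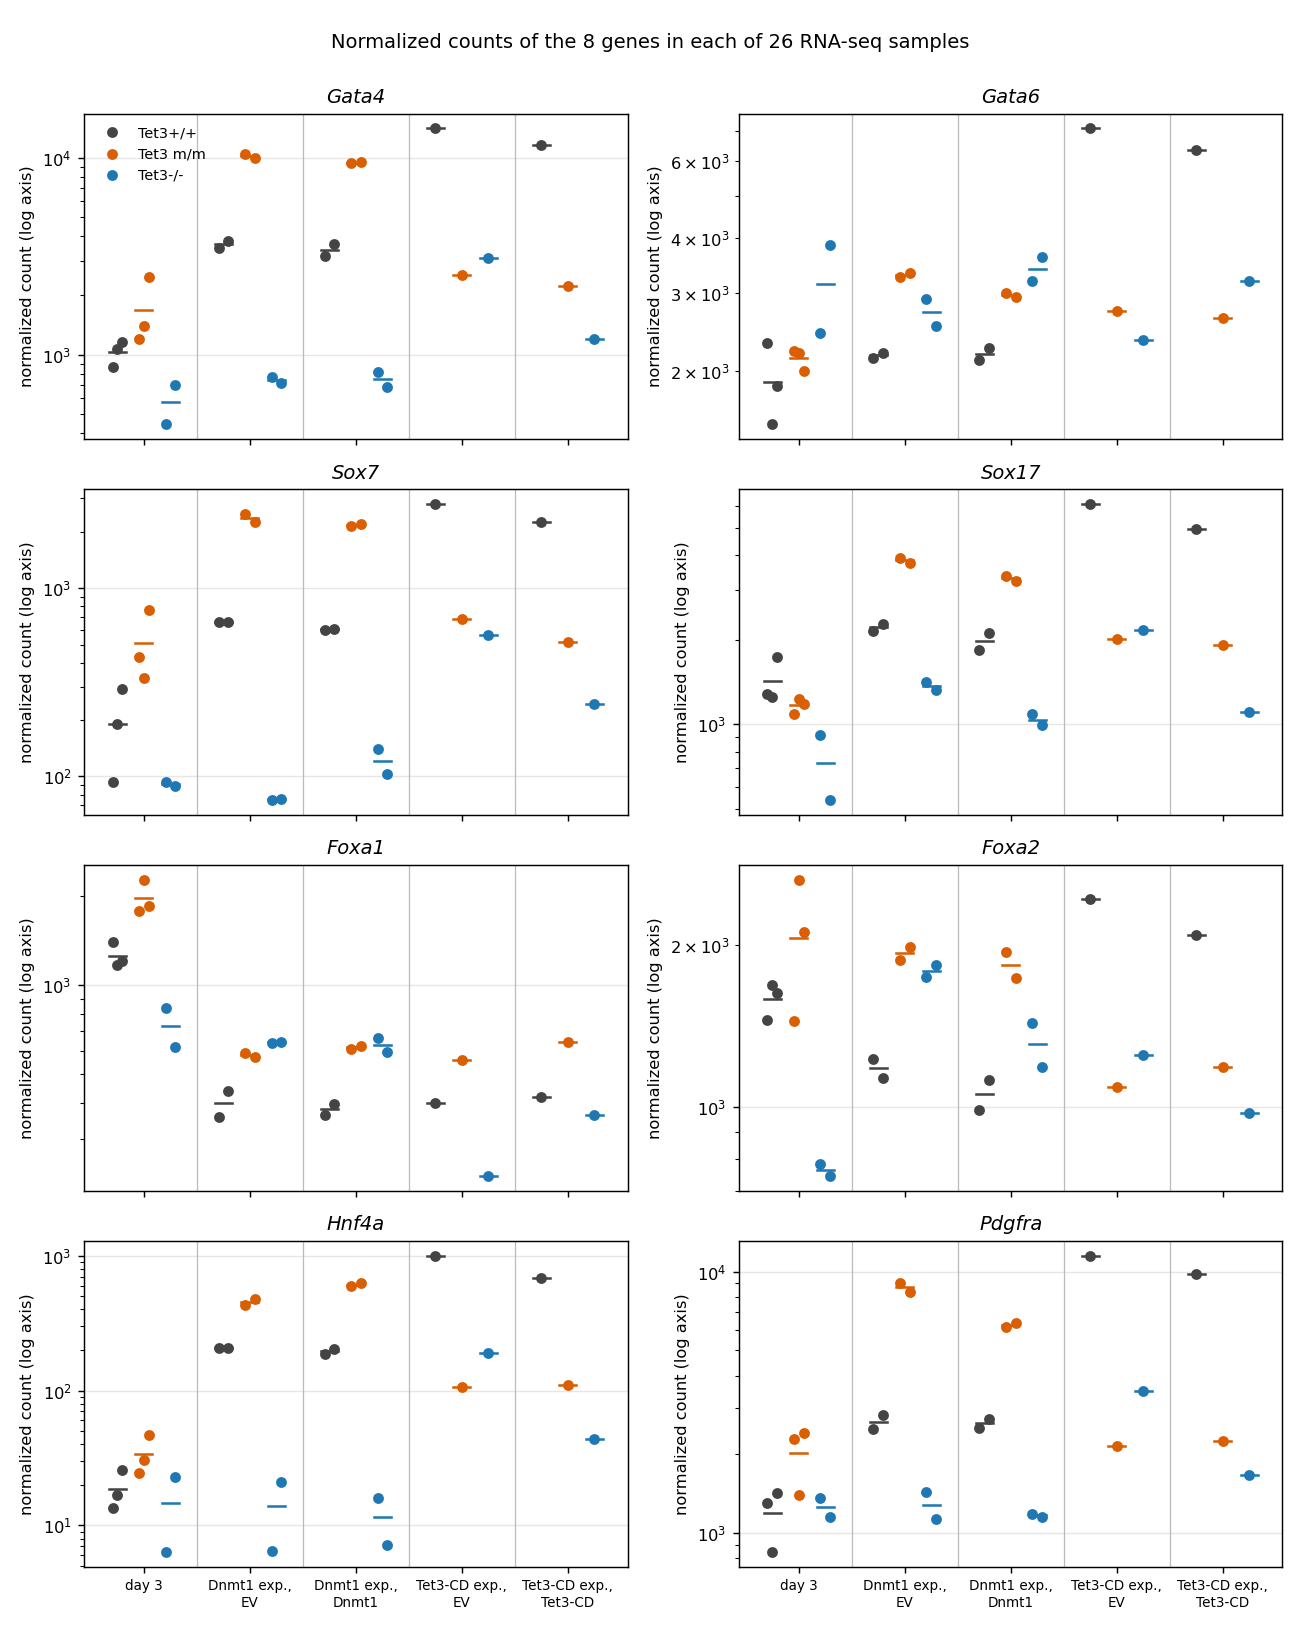
Normalized count of each gene (y axis, log scale) in every sample, by experiment and vector (x axis) and genotype (colour); dots are samples and bars are group means. Gata4, Sox7, Hnf4a and Pdgfra are highest in Tet3 m/m among the Dnmt1 experiment groups and highest in Tet3+/+ in the Tet3-CD experiment, where Gata4 reached 14098.

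Promoter sequences of the RefSeq tables (build GRCm38.p6, 250 bases before to 50 after a start) are given for 3 genes. Hnf4a has 2 annotated starts and ranged most. Pdgfra followed Gata4 over the 26 samples (Pearson's r of log2 values, centred on each experiment's mean, 0.94), and Foxa1 did not (0.06). On day 3 alone this contrast was absent, with r to Gata4 of 0.53 for Pdgfra and 0.76 for Foxa1. Of the 8 genes, 4 matched a window there (Foxa1, Foxa2, Hnf4a and Pdgfra). Both strands were searched for the GATA letters AGATAA or TGATAA, the forkhead letters TGTTTAC or TGTTTGC and the SOX letters AACAAT or AACAAA, and matches are in capitals.
Hnf4a first start, chr2:163506607-163506906, plus strand: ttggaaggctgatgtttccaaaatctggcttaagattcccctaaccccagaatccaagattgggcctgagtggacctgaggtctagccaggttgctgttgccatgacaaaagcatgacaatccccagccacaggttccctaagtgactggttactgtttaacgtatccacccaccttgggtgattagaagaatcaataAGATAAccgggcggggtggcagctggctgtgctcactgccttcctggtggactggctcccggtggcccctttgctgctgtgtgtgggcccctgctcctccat
Hnf4a second start, chr2:163546905-163547204, plus strand: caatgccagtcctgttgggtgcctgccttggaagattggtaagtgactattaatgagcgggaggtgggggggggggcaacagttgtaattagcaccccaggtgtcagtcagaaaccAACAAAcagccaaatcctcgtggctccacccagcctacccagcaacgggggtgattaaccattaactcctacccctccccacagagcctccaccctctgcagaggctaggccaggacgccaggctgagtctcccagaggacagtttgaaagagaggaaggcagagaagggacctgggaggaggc
Pdgfra, chr5:75152001-75152300, plus strand: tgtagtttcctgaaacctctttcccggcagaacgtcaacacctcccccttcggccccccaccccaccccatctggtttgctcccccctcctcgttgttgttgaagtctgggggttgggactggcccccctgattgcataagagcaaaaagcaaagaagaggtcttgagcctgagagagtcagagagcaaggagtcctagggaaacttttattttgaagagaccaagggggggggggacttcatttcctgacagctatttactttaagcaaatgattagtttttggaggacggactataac
Foxa1, chr12:57546062-57546361, minus strand: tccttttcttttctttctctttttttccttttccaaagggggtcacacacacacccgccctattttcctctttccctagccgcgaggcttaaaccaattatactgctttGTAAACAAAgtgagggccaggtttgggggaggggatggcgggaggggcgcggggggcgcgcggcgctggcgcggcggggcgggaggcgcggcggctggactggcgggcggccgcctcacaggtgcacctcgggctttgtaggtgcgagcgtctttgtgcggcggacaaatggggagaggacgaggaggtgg
The first Hnf4a window held 1 GATA match, the second 1 SOX match, and the Pdgfra window none of the 3 motifs. In the Foxa1 window, 1 forkhead match and 1 SOX match overlapped. Among all 32851 windows, 18.6% held the GATA letters, 8.48% the forkhead letters and 27.7% the SOX letters. The Foxa1 window had 26 CpG sites and a GC content of 62.3%, against 4 CpG sites in each Hnf4a window and 5 in the Pdgfra window (median of all windows, 7). The gene counts do not separate the 2 Hnf4a starts.

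Genotypes were first compared in untransfected day 3 NE cells, with limma on log2 of the value plus 1 and all genotypes in one fit; a gene was called when its adjusted p was under 0.05 and its fold change above 1.5. Between Tet3 m/m and Tet3+/+, 2 of the 8 genes were called, both higher (Sox7 and Foxa1), where 5.06% of all genes tested were called higher. Sox7, a SOXF factor of parietal endoderm and vessels, had 93.5, 189 and 291 normalized counts in Tet3+/+ and 432, 331 and 762 in Tet3 m/m samples. All 3 Tet3 m/m samples lay above the highest Tet3+/+ sample, a log2 fold change of 1.46 (SE 0.40, limma adjusted p = 0.0332). For Foxa1, a forkhead factor that opens chromatin, the values were 1405, 1168 and 1203 in Tet3+/+ and 1782, 2269 and 1858 in Tet3 m/m. These groups did not overlap either, where in 18.4% of all genes every Tet3 m/m sample lay above every Tet3+/+ sample, and Foxa1 rose by 0.64 (SE 0.15, limma adjusted p = 0.0152). Both calls rested on few samples: leaving out Tet3+/+ replicate 1 took Sox7 to 1.03 (limma adjusted p = 0.11), and leaving out Tet3 m/m replicate 2 took Foxa1 to 0.54 (0.067). Sox7 was also lost without Tet3+/+ replicate 2 or Tet3 m/m replicate 1 or 3, and Foxa1 without Tet3+/+ replicate 2 or 3.

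The other 6 genes were not called in Tet3 m/m. Gata4 had 867, 1070.3 and 1155 normalized counts in Tet3+/+ and 1202, 1397 and 2467 in Tet3 m/m, with every Tet3 m/m sample above the Tet3+/+ samples, replicate 3 by far, and a log2 fold change of 0.65 (SE 0.26, limma adjusted p = 0.124). Pdgfra, a receptor for PDGF ligands, had 1305, 847 and 1422 in Tet3+/+ against 2280.0, 1394 and 2411 in Tet3 m/m. Its groups overlapped through Tet3 m/m replicate 2, it did not pass at 0.76 (SE 0.23, limma adjusted p = 0.0524), and without that sample it was called at 1.01 (limma adjusted p = 0.017). Hnf4a, the nuclear receptor of visceral endoderm, was barely present, with 14 to 26 reads per Tet3+/+ sample and 24 to 46 per Tet3 m/m sample, and was not called at 0.83 (SE 0.54, limma adjusted p = 0.354). Sox17 was the one gene with a negative estimate, -0.27 (SE 0.19, limma adjusted p = 0.399). All 3 Tet3 m/m samples (1091, 1234 and 1182) were below the lowest Tet3+/+ sample (1285, 1246 and 1736), as in 18.3% of all genes. The margin was smaller than the spread within groups. Foxa2 and Gata6 had overlapping groups and log2 fold changes of 0.34 and 0.20.

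In Tet3-/- against Tet3+/+ cells of day 3, none of the 8 genes was called by limma, where 0.642% of all genes tested were called in either direction (115 genes, and 3608 at an unadjusted p under 0.05). With edgeR 0 of the 8 were also called. DESeq2 called 5 of the 8, but it also called 916 of all genes. Foxa2, a forkhead factor of endoderm and floor plate, had 1449, 1684 and 1631 normalized counts in Tet3+/+ and 785 and 745 in Tet3-/- samples. The groups were well apart, with a log2 fold change of -1.05 (SE 0.21, limma adjusted p = 0.0501). Foxa1 was at 837 and 616 in Tet3-/-, below each Tet3+/+ sample given above, at -0.80 (SE 0.16, limma adjusted p = 0.0506). Sox17, a SOXF factor of primitive and definitive endoderm, was at 915 and 537, with a log2 fold change of -1.002 (SE 0.21, limma adjusted p = 0.0544). These 3 genes thus lay just beyond the threshold. They were called with DESeq2 or when the 2 compared genotypes alone were fitted, settings that called 916 and 664 of all genes. Gata4 (442 and 701) and Sox7 (93.3 and 88.8) were also below every Tet3+/+ sample, as were 20.4% of all genes, with log2 fold changes of -0.88 and -0.91 and limma adjusted p of 0.131 and 0.279. Gata6, the factor that starts the primitive endoderm lineage, stood on the other side, at 2438 and 3864 against 2313, 1514 and 1853. Its 2 Tet3-/- samples differed widely from each other, and both were above all Tet3+/+ samples, as in 20.8% of all genes. Gata6 was not called by limma, at a log2 fold change of 0.72 (SE 0.20, limma adjusted p = 0.0918), and had a DESeq2 adjusted p of 0.014. Pdgfra (1363 and 1152) and Hnf4a (6 and 20 reads) overlapped with Tet3+/+.

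Set directly against Tet3 m/m, 5 of the 8 genes were lower in Tet3-/- cells, where 4.33% of all genes tested were called lower. Foxa1 fell by 1.45 on the log2 scale (SE 0.16, limma adjusted p = 6.1e-04) and Foxa2 by 1.39 (SE 0.21, limma adjusted p = 0.00247). Gata4 and Sox7, the first of them a GATA factor of endoderm and heart, fell by 1.53 (SE 0.29, limma adjusted p = 0.00773) and 2.38 (SE 0.44, limma adjusted p = 0.00733). Sox17 passed narrowly at -0.73 (SE 0.21, limma adjusted p = 0.0496) and was lost when Tet3-/- replicate 2 was left out (-0.35, limma adjusted p = 0.30). Gata4 was lost without Tet3-/- replicate 1 (-1.19, limma adjusted p = 0.065). Gata6 was the single gene of the 8 with a positive estimate, 0.52 (SE 0.20, limma adjusted p = 0.121). The 3 comparisons of day 3 share their samples, and the difference between the mutants is this direct test. Chromosomes that carry the 8 genes had median log2 fold changes of -0.12 to 0.07 in the 6 genotype comparisons of the replicated experiments.

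**Figure D2:**
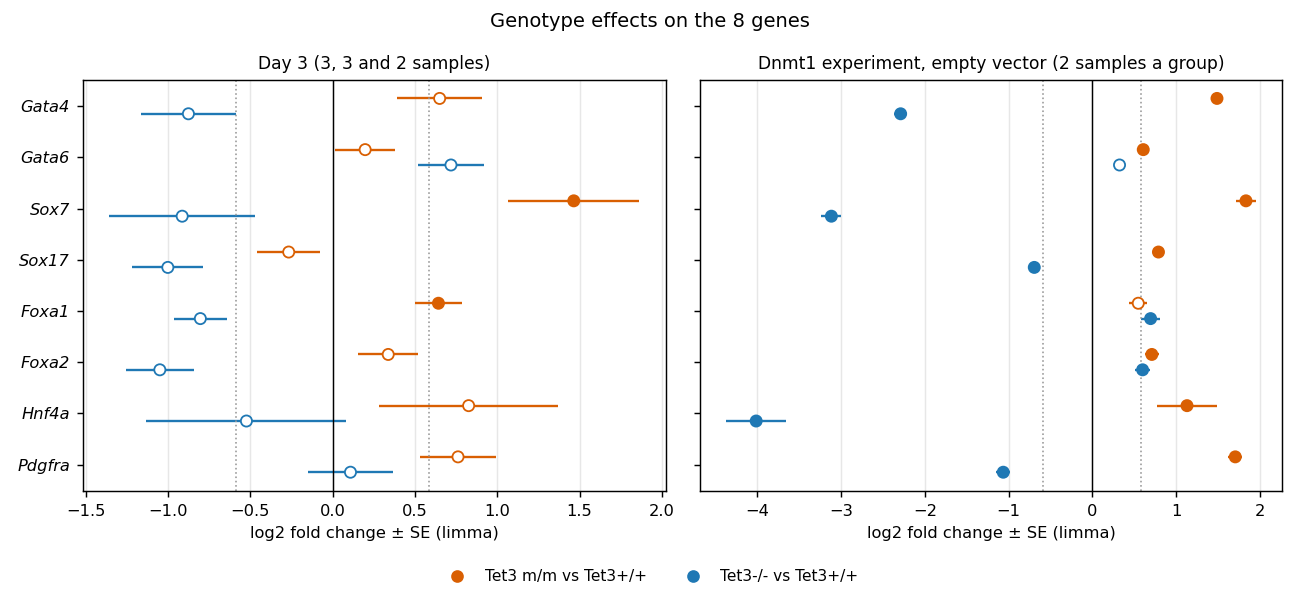
Log2 fold change (x axis, with SE from limma) of each gene (y axis) in Tet3 m/m (orange) and Tet3-/- (blue) against Tet3+/+ cells; filled dots passed the adjusted p and the 1.5-fold limit (dotted lines). On day 3, 2 genes are filled, and in the empty vector samples 7 in each mutant.

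Other endoderm genes were compared from lists. These were chosen with earlier results of these data known, so their counts of calls are descriptive. Of 16 tested genes of primitive and visceral endoderm, 7 rose in day 3 Tet3 m/m cells and none fell, with a list median log2 fold change of 1.11 against 0.00 over all genes (5.06% called higher). The largest rises were in Apob, which packs lipoproteins, at 3.17 (SE 0.42, limma adjusted p = 9.9e-04), and in Cubn, a receptor for nutrient uptake, at 2.30 (SE 0.41, limma adjusted p = 0.00464). In Tet3-/- against Tet3 m/m cells, 8 of these 16 genes were lower, led by Cubn at -4.00 and Ttr, a thyroid hormone carrier, at -3.13. Against Tet3+/+, Tet3-/- cells had 1 lower gene of the 16, the signal protein Ihh (-1.62, SE 0.28, limma adjusted p = 0.0464), and a list median of -0.13. The summed level of the list was 323 to 375 RPM in Tet3+/+, 505 to 688 in Tet3 m/m and 366 to 369.5 in Tet3-/- samples. In bulk RNA, fewer cells of a type and less RNA per cell cannot be told apart.

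Lists of the other cell types moved less evenly. Of all 17915 genes tested on day 3, 907 were called higher and 929 lower in Tet3 m/m, and 82 higher and 33 lower in Tet3-/-, each against Tet3+/+. Among 14 parietal endoderm genes, Lama1, a basement membrane laminin, and Fst rose in day 3 Tet3 m/m cells, by 1.05 and 1.27, and Pth1r fell by 0.75. Of 15 definitive endoderm and gut genes, Eomes (1.79), Trh (1.47) and Prdm1 (0.99) rose and Cxcr4 (-1.39) fell. Of 10 floor plate and ventral midline genes, which share Foxa1 and Foxa2 with endoderm, 3 rose in Tet3 m/m (Nkx2-2, Ptch1 and Ntn1, by 2.64, 1.16 and 0.83), and in Tet3-/- against Tet3+/+ 1 fell, Shh, at -1.45 (SE 0.27, limma adjusted p = 0.05). Against Tet3 m/m, 4 of these 10 were lower in Tet3-/- cells, with Gli1 at -2.22 and Ptch1 at -2.17. The cardiac and lateral mesoderm list had 4 rises, led by Myl7 (1.05) and Tbx20 (1.04), and 2 falls, Hand2 (-0.83) and Bmp4 (-0.63), in Tet3 m/m. Of the endothelium list, Flt1 (1.14) and Tek (1.11) rose and Cdh5 (-3.68) fell. In Tet3-/- against Tet3+/+, neither of these lists had a call, Nid1 was the parietal endoderm gene that rose (1.20, SE 0.20, limma adjusted p = 0.0464), and Cxcr4 the definitive endoderm gene that fell (-2.07, SE 0.27, limma adjusted p = 0.0274). None of 12 pluripotency genes was called in either mutant against Tet3+/+. Neural progenitor genes moved with the mutants: 9 of 14 fell in Tet3 m/m, led by Hes5 (-4.81) and Fabp7 (-2.50), whose mean counts there were only 8.9 and 9.9. In Tet3-/- 3 fell, among them Neurog2 (-3.58) and Msx1 (-1.21), and Nes rose by 1.14. The part of these lists in the values of the 8 genes was not tested.

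Among relatives and partners of the 8 genes, 15 were tested on day 3. In Tet3 m/m cells Foxa3 rose by 1.44 (SE 0.36, limma adjusted p = 0.0251) and Sox18, the remaining SOXF factor, by 1.76 (SE 0.29, limma adjusted p = 0.00332), while Gata2, a GATA factor of blood, fell by 0.86 (SE 0.16, limma adjusted p = 0.00551). From the list of RA response genes, Hoxb1 and Dhrs3 rose in Tet3 m/m (0.93 and 0.59), Nr2f1 and Crabp2 fell (-0.91 and -0.79), and none of the 12 was called in Tet3-/- against Tet3+/+.

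The genotypes were compared again in the EV samples of the Dnmt1 experiment, which were transfected and selected with blasticidin. Samples of a group lay closer together than on day 3 (chi-square per degree of freedom 3.96 to 11.1, against 13.8 to 87.2). P-values and numbers of calls are therefore not comparable with those of day 3, as they measure a smaller spread in this experiment. Here 7 of the 8 genes were higher in Tet3 m/m than in Tet3+/+ cells, where 10.3% of all genes tested were called higher. Gata4 had 3492 and 3794 normalized counts in Tet3+/+ and 10492 and 9941 in Tet3 m/m samples. The 2 pairs were far apart, a rise of 2.81-fold with a log2 fold change of 1.49 (SE 0.08, limma adjusted p = 7.0e-13). Sox7 went from 659.9 and 664 to 2479 and 2254, at 1.83 (SE 0.12, limma adjusted p = 3.6e-11). Pdgfra went from 2502 and 2827 to 9042 and 8338, at 1.71 (SE 0.08, limma adjusted p = 3.0e-13). These 3 genes had the largest rises of the 8. Hnf4a went from 208 and 206 to 432 and 479, at 1.13 (SE 0.36, limma adjusted p = 0.0135), and its call was lost without either Tet3+/+ sample (limma adjusted p = 0.059 and 0.063) or without Tet3 m/m replicate 2 (0.084). Sox17 rose from 2155 and 2275 to 3905 and 3749, by 0.79. Foxa2 rose from 1227 and 1134 to 1877 and 1985, by 0.71, and Gata6 from 2145 and 2199 to 3276 and 3343, by 0.61. Foxa1, from 357 and 438 to 587 and 570.4, passed the adjusted p at 0.55 (SE 0.11, limma adjusted p = 2.8e-04) but stayed under 1.5-fold.

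In EV Tet3-/- cells the 8 genes split. Of them 5 were lower than in Tet3+/+ (13.9% of all genes were called lower) and 2 were higher (11% called higher). Hnf4a had the largest fall, to 6.5 and 21.2 normalized counts, or 8 and 20 reads, a log2 fold change of -4.02 (SE 0.36, limma adjusted p = 6.7e-09). Sox7 was at 74.7 and 76.2, 8.68-fold below Tet3+/+ (-3.12, SE 0.12, limma adjusted p = 9.7e-15). For Gata4 the Tet3-/- samples had 771 and 717, 4.89-fold below (-2.29, SE 0.08, limma adjusted p = 9.9e-16). Their Tet3-/- values lay below both Tet3+/+ samples, as did those of 38.3% of all genes. Pdgfra, at 1431 and 1129, and Sox17, at 1412 and 1326, fell by 1.06 (SE 0.08, limma adjusted p = 8.1e-10) and 0.69 (SE 0.07, limma adjusted p = 4.6e-08). The FOXA pair went the other way, Foxa1 to 638 and 643 and Foxa2 to 1745 and 1832. They rose by 0.70 (SE 0.11, limma adjusted p = 1.7e-05) and 0.60 (SE 0.09, limma adjusted p = 6.2e-06), both close to the 1.5-fold limit. Foxa1 fell under it without the Tet3+/+ sample that had 357 counts of Foxa1 (0.55), and Foxa2 without the Tet3+/+ sample with 1134 counts of Foxa2 or Tet3-/- replicate 2 (0.54 and 0.56). Gata6 was higher at 2918 and 2533, by 0.32 (SE 0.07, limma adjusted p = 4.2e-04), which is under 1.5-fold.

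Directly against Tet3 m/m, EV Tet3-/- cells had lower Hnf4a (-5.15), Sox7 (-4.95), Gata4 (-3.78), Pdgfra (-2.77) and Sox17 (-1.48), where 20.6% of all genes tested were called lower. As linear folds, Sox7 was 30.9-fold and Gata4 13.7-fold lower. Neither Foxa1 nor Foxa2 was called, at 0.15 (SE 0.11, limma adjusted p = 0.247) and -0.11 (SE 0.09, limma adjusted p = 0.278). Set beside day 3, where these 2 genes were lower in Tet3-/- than in Tet3 m/m, the values differ. The difference between the experiments was not tested.

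The same lists were also compared in the EV samples, where 10.3% of all genes were called higher in Tet3 m/m and 13.9% lower in Tet3-/-. In the other directions, 1969 of 18055 genes were called lower in Tet3 m/m and 1993 higher in Tet3-/-. Of 18 primitive and visceral endoderm genes, 15 rose in Tet3 m/m and 1 fell, Dkk1 at -0.92 (list median 1.20, all genes 0.01). The rises were led by Cer1, a secreted antagonist of the anterior visceral endoderm, at 4.97 (SE 0.81, limma adjusted p = 2.8e-05), and Cubn at 2.38 (SE 0.20, limma adjusted p = 3.0e-09). Cer1 had only 0 and 1.98 normalized counts in the Tet3+/+ samples, so the size of its rise depends on the pseudocount. In Tet3-/-, 15 of the 18 fell and none rose (median -1.53, all genes 0.00), led by Apoa1 (-5.03, SE 0.48, limma adjusted p = 2.0e-08) and Apob (-4.80, SE 0.30, limma adjusted p = 3.4e-11). Apoa1 was near zero there, at 0 and 3.25 normalized counts, so the size of its fall depends on the pseudocount. The summed level was 1252 to 1380.0 RPM in Tet3+/+, 3306 to 3554 in Tet3 m/m and 431 to 441 in Tet3-/- samples. Of 14 parietal endoderm genes, 8 rose and 4 fell in Tet3 m/m, and 3 rose and 8 fell in Tet3-/-. The laminin Lama1 rose by 1.76 in Tet3 m/m and fell by 2.63 in Tet3-/-, and Nid1 (1.72 in Tet3 m/m) and Col4a1 (-1.83 in Tet3-/-) were next, whereas the keratins Krt19 and Krt8 went the opposite way in Tet3 m/m (-2.02 and -1.22), and Krt19 (1.43) and Thbd (1.36) had the largest rises in Tet3-/-. The definitive endoderm and gut list had 6 rises and 3 falls in Tet3 m/m, with Trh (2.32) and Eomes (1.95) the largest rises, and 4 rises and 3 falls in Tet3-/-.

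Other cell types moved with these values. Of 12 pluripotency genes, 11 rose in EV Tet3 m/m and 1 fell, and 11 fell in EV Tet3-/-, led by Klf4 (2.54) and Tfcp2l1 (1.97) in Tet3 m/m, where Dppa3 was the fall (-0.89), and by Fgf4 (-3.84) and Nanog (-3.27) in Tet3-/-. Their summed level was 894 to 901 RPM in Tet3+/+, 2399 to 2452 in Tet3 m/m and 249 to 266 in Tet3-/- samples, with all 12 genes in the table, and on day 3 it was 299 to 421, 309 to 827 and 237 to 321. Neural progenitor genes went the opposite way in Tet3 m/m (1 rise, Sox3, and 8 falls, among them Zic1, -2.68), and in Tet3-/- 5 rose and 2 fell. Of 12 RA response genes, 7 fell in Tet3 m/m, led by Nr2f1 (-3.51), and in Tet3-/- 6 rose and 1 fell. Endothelium genes, which share Sox7 and Sox17, had 5 rises and 1 fall in Tet3 m/m and 7 falls in Tet3-/-, the largest in Tie1 (-2.96). Cardiac and lateral mesoderm genes, which share Gata4, had 7 falls and 1 rise in Tet3 m/m, led by Hand2 (-3.57) and Actc1 (-3.50), while Gata4 rose. In Tet3-/- the cardiac list had 4 rises and 3 falls, with Tbx18 (1.54) and Myl7 (-1.65) at its ends. Floor plate genes had 2 rises (Spon1, 1.36, and Ptch1, 0.87) and 3 falls in Tet3 m/m, with Sulf1 (-2.32) and Shh (-1.93) lowest, and 2 rises and 4 falls in Tet3-/-, with Shh among the rises at 1.04. The part of these cell types in the values of the 8 genes was not tested.

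Relatives of the 8 genes did not all follow them. In EV Tet3 m/m cells, where Gata4 and Gata6 rose, the trophoblast and blood factors Gata3 and Gata2 and the endoderm factor Gata5 fell, at -2.49, -2.15 and -2.23. Of the 15 relatives and partners tested, 6 fell, the others being the PDGF ligand genes Pdgfc, Pdgfb and Pdgfd. In EV Tet3-/- cells 6 of them rose and 5 fell. Sox18 had the largest fall (-2.74), and the ligand gene Pdgfb (1.64) and the GATA cofactor gene Zfpm2 (1.47) the largest rises.

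**Figure D3:**
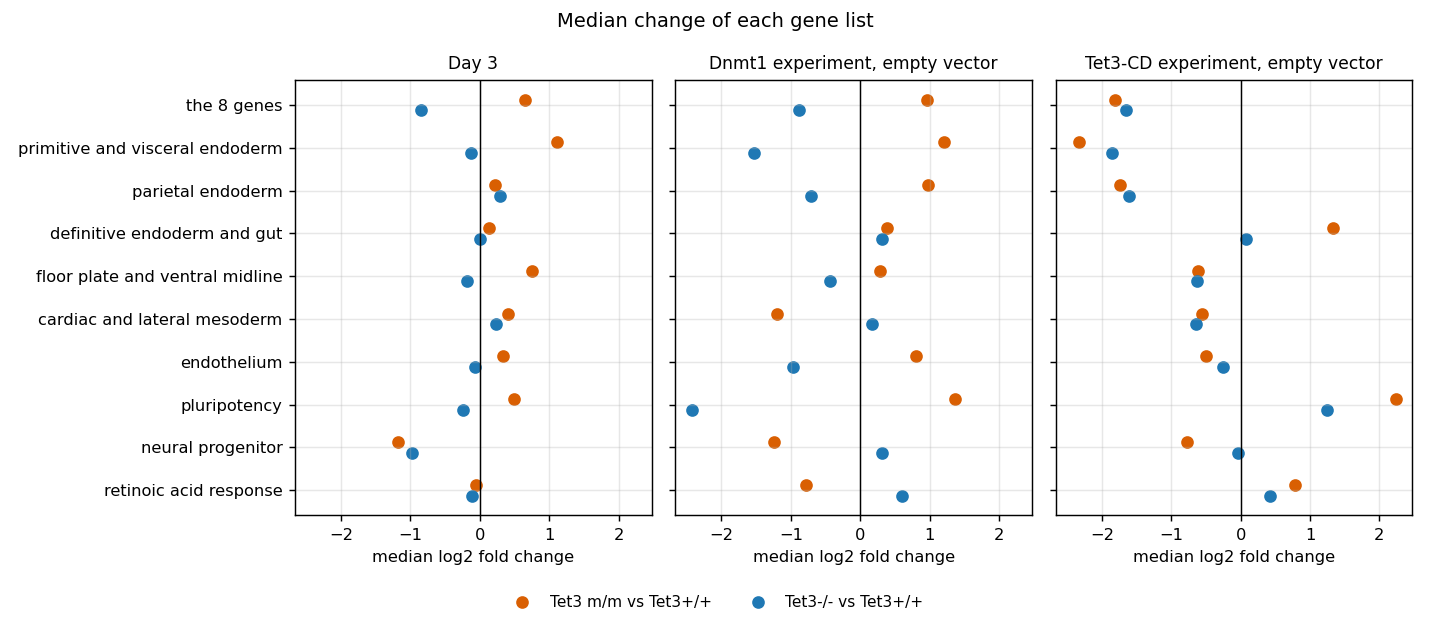
Median log2 fold change (x axis) of the tested genes of each list (y axis) in Tet3 m/m (orange) and Tet3-/- (blue) against Tet3+/+ cells without Dnmt1 or Tet3-CD, by experiment; the Tet3-CD experiment has 1 sample per group. The 8 genes lie at 0.65 and -0.84 on day 3, 0.96 and -0.88 with EV in the Dnmt1 experiment, and -1.81 and -1.66 with EV in the Tet3-CD experiment.

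The study expressed Dnmt1 to learn whether it returns genes that were higher in the mutants to their normal level. In Tet3+/+ cells none of the 8 genes was called by limma (1.17% of all genes called in either direction; 0 of the 8 with edgeR and DESeq2), and the 8 log2 fold changes lay between -0.17 and 0.01, with Sox17 the lowest at an unadjusted p of 0.0295. The same count of 0 was found in Tet3 m/m cells (2.46% of all genes called; 0 of the 8 with edgeR and DESeq2). There Pdgfra went from 9042 and 8338 normalized counts with EV to 6138 and 6375 with Dnmt1. Both Dnmt1 samples were below both EV samples, as in 26.6% of all genes in this comparison. Pdgfra thus changed by -0.47 (SE 0.08, limma adjusted p = 6.5e-04), which is 1.39-fold and under the 1.5-fold limit. It still stood above the Tet3+/+ samples with Dnmt1 (2523 and 2726). At an unadjusted p under 0.05 there were 3592 genes in Tet3+/+ and 4203 in Tet3 m/m cells.

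In Tet3-/- cells, 1 of the 8 genes was called with Dnmt1, Sox7, where 2.51% of all genes were called higher. Sox7 had 74.7 and 76.2 normalized counts with EV and 139 and 102 with Dnmt1, a log2 fold change of 0.65 (SE 0.12, limma adjusted p = 8.0e-04). The rise was small beside the gap to Tet3+/+, whose samples had 596 and 610.4 with Dnmt1, and it fell under 1.5-fold (0.44) without Dnmt1 replicate 1. Of the other genes, 3 passed the adjusted p at less than 1.5-fold. Foxa2 went from 1745 and 1832 to 1433 and 1188, at -0.45 (SE 0.09, limma adjusted p = 0.00125), and Sox17 from 1412 and 1326 to 1089 and 991, at -0.40 (SE 0.07, limma adjusted p = 6.5e-04). Gata6 was higher, from 2918 and 2533 to 3195 and 3620.1, at 0.32 (SE 0.07, limma adjusted p = 0.00284). The Dnmt1 samples of Foxa2 and Sox17 lay below the EV samples, as did those of 24.7% of all genes, and the Dnmt1 samples of Gata6 above them, as did those of 27.3% of all genes. Of 12 pluripotency genes, 7 rose with Dnmt1 in Tet3-/- cells (Nanog, 1.03, and Fgf4, 0.90, most), from a summed 249 to 266 to 304 to 328 RPM, and their part in the values of the 8 genes was not tested. From the 18 primitive and visceral endoderm genes, 2 rose, Apoa1 (1.49, SE 0.48, limma adjusted p = 0.0459) and Lefty1 (1.01, SE 0.14, limma adjusted p = 6.3e-05), and none was called in the other genotypes. Apoa1 had only 0 and 3.25 normalized counts in the EV Tet3-/- samples, so the size of its rise depends on the pseudocount.

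Differences between genotypes in the response to Dnmt1 were tested as interactions. The vector gave a higher mean count of Dnmt1 in Tet3-/- (36617) than in Tet3+/+ (23284) or Tet3 m/m cells (21728). The part of this level in the differences was not tested. Of the 8 genes, 1 was called in Tet3-/- against Tet3+/+ (2.66% of all genes called higher) and 1 in Tet3-/- against Tet3 m/m (2.89% called higher), Sox7 in both. Its response was larger in Tet3-/- by 0.79 (SE 0.17, limma adjusted p = 0.00447) than in Tet3+/+ and by 0.78 (SE 0.17, limma adjusted p = 0.0034) than in Tet3 m/m. Without Dnmt1 replicate 1 of Tet3-/- these were 0.57 and 0.56, under the 1.5-fold limit. The response of Gata6 differed by 0.31 (SE 0.10, limma adjusted p = 0.0446) from that in Tet3+/+ and by 0.48 (SE 0.10, limma adjusted p = 0.00191) from that in Tet3 m/m, and that of Foxa2 by -0.38 (SE 0.12, limma adjusted p = 0.0432) from that in Tet3 m/m, all under 1.5-fold. No gene of the 8 was called between Tet3 m/m and Tet3+/+ by limma, edgeR or DESeq2 (0.604% of all genes called in either direction, and 1963 at an unadjusted p under 0.05), where the estimates lay between -0.45 for Pdgfra (limma adjusted p = 0.0645) and 0.51 for Hnf4a (limma adjusted p = 0.796).

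The Tet3-CD experiment has 1 sample per group, so its values are described without a test, and intervals cover counting error only. With EV, 7 of the 8 genes had higher normalized counts in Tet3+/+ cells here than in any Tet3+/+ sample of the other experiments. Gata4 was at 14098, Pdgfra at 11469, Gata6 at 7108, Sox17 at 6065 and Sox7 at 2795, while Foxa1 was at 398. Values of separate tables share no normalization. The RPKM of Gata4 was 101 here, against a mean of 6.48 in day 3 Tet3+/+ cells. With EV, 7 of the 8 genes were over 1.5-fold lower in Tet3 m/m than in Tet3+/+ (16.1% of all genes were so). In the EV samples of the Dnmt1 experiment these 7 genes had been called higher, and the difference between the experiments was not tested. Gata4 was at 2522, 5.59-fold lower (95% counting interval 5.36 to 5.83), and Hnf4a at 106 against 995, 9.37-fold lower (95% counting interval 7.71 to 11.5). Foxa1 was the exception, 1.4-fold higher (95% counting interval 1.23 to 1.6). In Tet3-/- with EV all 8 were over 1.5-fold lower than in Tet3+/+ (11.7% of all genes were so), from 5.22-fold lower (95% counting interval 4.46 to 6.14) for Hnf4a to 1.77-fold lower (95% counting interval 1.49 to 2.09) for Foxa1. The primitive and visceral endoderm list stood at 2411 RPM for Tet3+/+, 822 for Tet3 m/m and 739 for Tet3-/-, and the parietal endoderm list at 35683, 10388 and 11937. Pluripotency genes stood at 370.4, 679 and 468, so here they were higher in both mutants. Of the 8 genes, 7 were lower in Tet3 m/m and all 8 in Tet3-/-.

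Tet3-CD against EV moved none of the 8 genes past 1.5-fold in Tet3+/+ (13.4% of all genes past it) or in Tet3 m/m (10.1%). In Tet3+/+ 7 of the 8 were lower with Tet3-CD, Hnf4a most (995 to 686). In Tet3 m/m 4 were lower and 4 higher. In Tet3-/- 5 genes were over 1.5-fold lower with Tet3-CD (11.6% of all genes) and 1 higher (9.89%). Gata4 went from 3106 to 1200.1, 2.59-fold lower (95% counting interval 2.42 to 2.77). For Hnf4a the values were 190.4 and 43.5, 4.38-fold lower (95% counting interval 3.16 to 6.19), and for Sox7 563 and 242, 2.33-fold lower (95% counting interval 2.01 to 2.71). Pdgfra went from 3482 to 1662, 2.09-fold lower (95% counting interval 1.98 to 2.22), and Sox17 from 2159 to 1106, 1.95-fold lower (95% counting interval 1.82 to 2.1). The counting interval of each of these 5 genes lay wholly past 1.5-fold. Foxa1 was 1.61-fold higher (95% counting interval 1.36 to 1.91), from 226 to 363. Gata6 was 1.36-fold higher (95% counting interval 1.29 to 1.43) and Foxa2 1.28-fold lower (95% counting interval 1.18 to 1.39). In this pair of libraries 14 of 17 primitive and visceral endoderm genes and 8 of 12 pluripotency genes were also over 1.5-fold lower, and 7 of 12 RA response genes were higher. Without replicates, a difference between these libraries cannot be told apart from one between cultures.

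**Figure D4:**
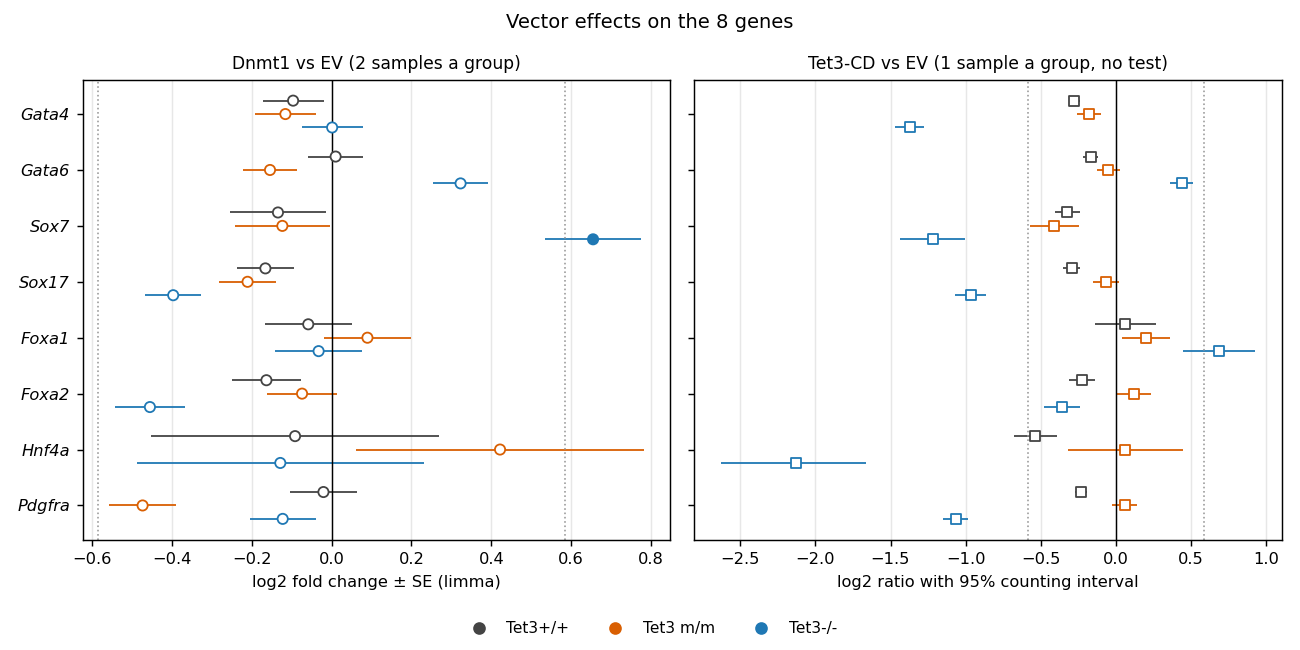
Log2 change (x axis) of each gene (y axis) with Dnmt1 against EV (left, limma estimate with SE, 2 samples a group, filled where called) and with Tet3-CD against EV (right, 1 sample a group, 95% counting interval), by genotype; dotted lines mark 1.5-fold. Sox7 in Tet3-/- is the one filled point, and in Tet3-/- with Tet3-CD Hnf4a, Gata4, Sox7, Pdgfra and Sox17 lie left of the 1.5-fold line.

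How the 8 genes vary together was described by Pearson's r of log2 values, centred on each experiment's mean, over the 26 samples, where both genes of a pair are read from the same libraries and samples share genotypes. Gata4, Sox7, Hnf4a, Pdgfra and Sox17 rose and fell together, with r from 0.83 (Sox17 and Hnf4a) to 0.97 (Gata4 and Sox7). Foxa2 was between, at 0.53 with Gata4 and 0.62 with Foxa1. Foxa1 had r of -0.08 to 0.14 with the 5 and Gata6 of 0.15 to 0.43. Within the 20 samples of the replicated experiments, Gata4 and Sox7 were at 0.98, Foxa1 and Foxa2 at 0.86, and Gata6 at -0.13 with Gata4. The pattern differed by experiment. On day 3 alone Gata4 and Sox7 were at 0.90, but Sox17 was at 0.14 with Pdgfra and 0.18 with Hnf4a, against 0.98 and 0.93 in the Dnmt1 experiment. In the Tet3-CD experiment Gata6 had an r of 0.82 to 0.88 with the 5 genes, and Foxa2 of 0.96 to 0.99. On day 3 alone Gata6 had an r of -0.85 with Sox17 over 8 samples, and in the Dnmt1 experiment 0.82 with Foxa1 over 12. These r values describe the samples at hand and were not tested.

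**Figure D5:**
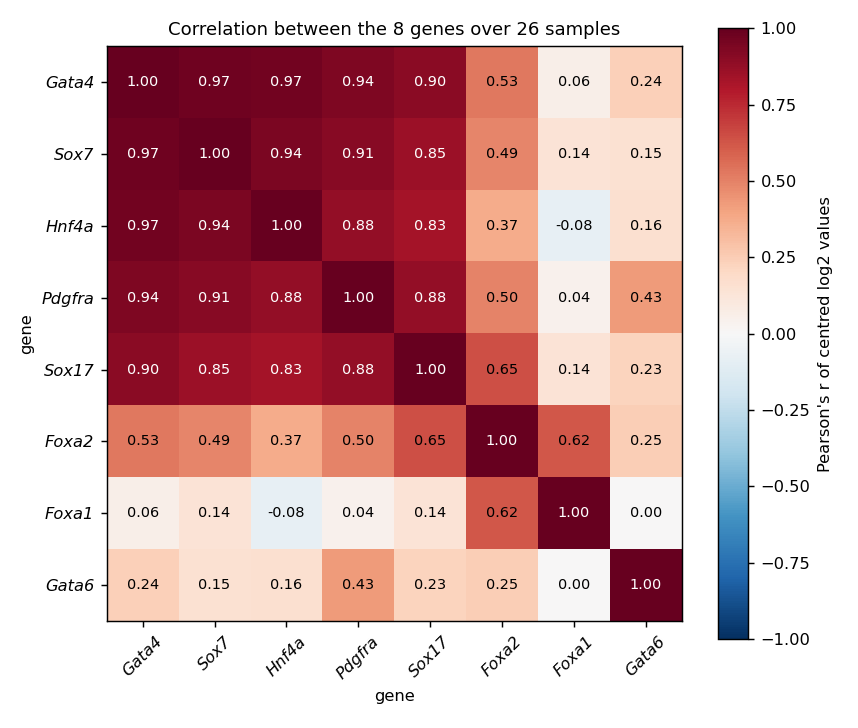
Pearson's r (colour and number) between the 8 genes (both axes) over 26 samples, from log2 values centred on each experiment's mean. Gata4, Sox7, Hnf4a, Pdgfra and Sox17 form a block from 0.83 to 0.97, and Foxa1 and Gata6 stand outside it, at 0.00 with each other.

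Among 14056 genes with a mean of at least 50, the 3 most alike to Gata4 were Lama1 (r = 0.99), Klb (0.98) and Dram1 (0.98). Lama1 encodes a laminin of the parietal endoderm basement membrane, and it was also first for Sox7 (0.99), ahead of Cubn (0.98) and Klb (0.98). For Hnf4a they were Gata4 itself (0.97), Lama1 (0.96) and Npl (0.96), and for Pdgfra Lgmn (0.98), Lamb1 (0.98) and Lamc1 (0.97), the last 2 of them laminin genes. Sox17 was nearest to Ihh (0.95) and Ephb3 (0.94). Gata6 was nearest to Arhgef28 (0.91), Stx7 (0.90) and Plod3 (0.88), Foxa1 to Zfp84 (0.86), Ovca2 (0.84) and Tmem181b-ps (0.83), and Foxa2 to Col8a2 (0.78), Frs3 (0.77) and Zfp60 (0.77), none of which is on the endoderm lists. Gata4 and Sox7 lie near each other on chromosome 14. Of the genes that start between them, 5 were tested, and in the EV samples 1 of these 5 rose in Tet3 m/m, and in Tet3-/- 1 rose and 1 fell.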

How the data were processed

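The 26 RNA-seq samples of 35 in the series were used. Per the methods, the authors trimmed reads with Trim Galore 0.6.7, aligned them with STAR 2.7.9a to mm39 (the labels list mm10), made gene counts with featureCounts and scaled these with DESeq2. The deposited values are thus signal on a linear scale, counts divided by size factors, and 100% of values were whole multiples of 1 read within 0.01. Strand was not given in the sources used here, so overlapping and antisense genes cannot be told apart.

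Genes with a mean of at least 10 were fitted with limma 3.58.1 (R 4.3.3) on log2 of the value plus a pseudocount of 1, with a trend, 1 fit per experiment over all its groups and Benjamini-Hochberg adjustment over all genes tested; edgeR 4.0.16 and DESeq2 1.42.0 on recovered reads were alternatives. Fold changes on this scale understate those of low genes. Intervals are exact (Clopper-Pearson). Same-group samples differed by more than counting noise in all 13 pairs. Chi-square per degree of freedom was 13.8 to 87.2 on day 3 and 3.96 to 11.1 in the Dnmt1 experiment. In the Dnmt1 table, 2 columns share a header, and both were taken as EV Tet3+/+ without a number. The fits were tested on simulated data. The genes named from 10 lists are all called ones up to 5, otherwise the 2 largest rises and falls, and some genes that the rule names are not reported here. The members and lists were chosen with earlier results of these data known. WGBS, hmeDIP and CUT&Tag samples were not analysed here.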

Additional observations from a re-analysis of the deposited data

Results flagged for a closer look

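The response to Dnmt1 differed between genotypes in 3 genes at a limma adjusted p under 0.05, and of these only Sox7 also passed 1.5-fold. Without the fold change limit, 1753 of all 18055 genes tested passed between Tet3-/- and Tet3+/+, and 2572 between Tet3-/- and Tet3 m/m. The level of Dnmt1 with the vector also differed between genotypes. The log2 change of Sox7 with Dnmt1 was higher in Tet3-/- than in Tet3+/+ (by 0.79) and than in Tet3 m/m (by 0.78), and that of Gata6 likewise (by 0.31 and 0.48). Foxa2 differed by -0.38 between Tet3-/- and Tet3 m/m, as its level was lower with Dnmt1 by more in Tet3-/- (-0.45) than in Tet3 m/m (-0.07).

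Some genotype differences had opposite directions in day 3 cells and in the EV samples of the Dnmt1 experiment, with all samples of a genotype on one side each time; the difference between experiments was not tested. Such separation was common, since on a given side it held for 18.3% to 20.8% of all genes on day 3 and 36.1% to 41.8% in the EV samples. In Tet3 m/m against Tet3+/+, Sox17 was at -0.27 on day 3 and 0.79 with EV. In Tet3-/- against Tet3+/+, Foxa1 was at -0.80 and 0.70, and Foxa2 at -1.05 and 0.60. In Tet3-/- against Tet3 m/m, Gata6 was at 0.52 and -0.28, and Foxa1 at -1.45 and 0.15. Transfection and blasticidin selection differ between these experiments together with everything else, and their parts cannot be told apart.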

How the results depend on the processing

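Of the 8 genes, the number called on day 3 in Tet3 m/m against Tet3+/+ was 2, and 4 with DESeq2; in Tet3-/- against Tet3+/+ it was 0, and 5 with DESeq2, 4 with only the compared groups and 2 with a pseudocount of 5. With the replicate number as a block these counts were 4 and 1, but same-numbered samples did not deviate together (r of -0.10 to 0.08 on day 3 and -0.05 to 0.03 in the Dnmt1 experiment), so the pairing is in number only. Leaving out 1 replicate gave 0 to 2 and 0 to 4. For Dnmt1 against EV, no fold change threshold gave 1 gene in Tet3 m/m and 4 in Tet3-/- (main counts 0 and 1), and only the compared groups gave 0 in Tet3-/-. For the interactions, no fold change threshold gave 2 genes between Tet3-/- and Tet3+/+ and 3 between Tet3-/- and Tet3 m/m (1 each), and leaving out 1 replicate gave 0 to 1 and 0 to 2; a lone sample is then assumed to vary like the other groups. All other counts of the 8 genes, those with the block in the Dnmt1 experiment included, stayed within 1.5 times. Single values that changed sign were Hnf4a (-1.37 to 0.32 over the samples left out) and Pdgfra (-0.12 to 0.25) in day 3 Tet3-/- against Tet3+/+, neither called. The cause of these changes was not tested. Over all genes, the 115 calls of day 3 Tet3-/- against Tet3+/+ became 916 with DESeq2, 664 with only the compared groups, 223 and 64 with pseudocounts of 5 and 0.1, 67 with TMM factors, 58 with a mean of at least 50, and 0 to 706 without 1 replicate. The 212, 444 and 638 calls of Dnmt1 against EV became 1010, 1842 and 2423 without a fold change threshold, and with it removed the 3831, 4504 and 7141 calls between EV genotypes became 8230, 9612 and 11852, and the 109, 721 and 972 interactions 236, 1753 and 2572. With only the compared groups, Dnmt1 against EV gave 366 in Tet3+/+ and 419 in Tet3-/-, and day 3 Tet3-/- against Tet3 m/m 1154 for 1744. The median r of the 28 pairs was 0.49, and 0.34 over 20 samples. Depth limits Hnf4a, with 6 to 46 reads per day 3 sample.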
